A study of Danio rerio with 12 samples.

Results

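Lesioned and control retinas of adult zebrafish were compared at 3, 5 and 7 days post-lesion to find the changes in transcript level that the 3 days shared. The comparison used 6 of the 12 Affymetrix zebrafish arrays of the series, 3 of lesioned and 3 of control retina, chosen by their titles and joined by day, so that each day gave 1 lesioned and 1 control array. The animals were matched between conditions, with at least 8 for each condition per the design text, and nothing in the sources used here gives the strain, the age beyond adult, the way the lesion was made, the share of the retina it took, whether the control retinas came from the same fish, or how many animals went onto an array. The other 6 arrays held brain, 1 further unlesioned retina, and lesioned and control retinas of days 2 and 14, of which only the last 4 are used here, as a comparison. The 6 arrays of days 3, 5 and 7 share 1 technical batch, and those of days 2 and 14 lie outside it.

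Fish, unlike mammals, regrow retinal neurons after injury. In zebrafish the source is the Müller glia, radial glia that span the retina: they become reactive, re-enter the cell cycle and give rise to progenitors, while microglia and other phagocytes clear dying cells. Retinal ganglion cells, whose axons form the optic nerve, also regrow cut axons in fish.

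Values are signal intensities that the authors had scaled per array, with a median of 147, 154 and 146.5 on the lesioned arrays of days 3, 5 and 7, against 139.5, 139 and 135 on the control arrays. Rank correlations between the 6 arrays were 0.934 to 0.965. Of 16 retina markers, 10 could be measured by a probe set with a single gene symbol, and none of the 10 passed the test. Both groups carried high photoreceptor signals: the cone phosphodiesterase pde6c lay at 26802 to 29646 in lesioned and 27522 to 28898 in control retinas, and the photoreceptor factor crx at 3940 to 5118 in lesioned and 4903 to 5256 in control retinas. The markers were not all level. The rod transducin gene gnat1 lay at 7759 to 19329.5 in lesioned and 18019 to 23815 in control retinas. The green opsin gene opn1mw1 lay at 6803 to 11548.5 in lesioned and 11641 to 14912 in control retinas, without overlap. The lesion change, defined below, was positive in opn1lw1 and otx5 and negative in the other measured markers. Of 45 brain regional genes on the array, 36 lay below the filter on low signals, as did 8 of 9 lens genes. The ratio of 5′ to 3′ signal of the GAPDH quality probe sets, which falls as RNA or labelled target gets shorter, was 0.103, 0.157 and 0.205 on lesioned arrays of days 3, 5 and 7, against 0.158, 0.2001 and 0.245 on control arrays. It was lower on the lesioned array of every day, by 0.62, 0.35 and 0.25 log2 units. A lower ratio thus goes with the lesion in every change given here, by an amount that was smaller on each later day.

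Many more genes rose than fell. Changes are given as the fitted log2 change, the mean over the 3 days of log2(signal + 50) in lesioned minus control retina. Each has a standard error, moderated across probe sets, and the adjusted p of limma's moderated test with the day as a block. Of 9301 probe sets tested, 406 rose and 70 fell at an adjusted p under 0.05, which is 5.12% of them in either direction. In genes, each represented by its brightest probe set, 317 of 6034 rose (5.25%) and 36 fell (0.597%). The median of all 6034 genes was 0.01, near 0. The change was in the same direction on all 3 days for 315 of the 317 genes that rose and for all 36 that fell, against 38.3% of all genes tested, a share that the test itself favours. The counts of gene lists given here stand against these shares of all genes. A gene dim in control retina could pass the filter on low signals through its lesioned signals. Shares and medians of lists with many dim members partly reflect that choice. These include the mitosis, DNA replication, leukocyte, complement, interferon-induced, matrix, annexin and muscle lists. The fitted rise reached 2-fold in 84 genes, and the fitted fall in 1, rp1l1a.

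The count of rises was steadier than that of falls. Left without day 3, day 5 or day 7, the fit called 359, 352 and 271 probe sets up, and 43, 146 and 31 down. Each of these fits holds 2 pairs of arrays and leaves 1 residual degree of freedom. A gene can thus lose its call in them with a change of nearly the same size. With the GAPDH ratio as a further covariate, which leaves 1 residual degree of freedom, 24 probe sets were called up and 2 down, and 22 of the 406 rises and none of the 70 falls kept their call, while 90.1% of the rises and 82.9% of the falls kept their direction. The lesion change of that fit is extrapolated to equal GAPDH ratios in lesioned and control retina, which no pair of these days had. No list kept more than 6 of its calls, and socs3a, hbaa1, fosab, hspb1, psmb10, ddx21, desi1a, nr2f1a and crabp2b were among 14 of the genes named here that passed without the covariate and had the opposite sign with it. An unblocked fit, which sets the groups against the spread between days, called 13 up and 0 down (597 probe sets at an unadjusted p under 0.05).

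The largest change was that of mmp9, a secreted metalloproteinase that degrades collagens and other matrix. Its signal was 753, 1712 and 1270.1 in lesioned retinas, against 15.3, 44.3 and 65.0 in control retinas, on days 3, 5 and 7. Every lesioned array lay more than 10-fold above every control array, and the fitted log2 change was 3.79 ± 0.17 (adjusted p = 3.28e-12). The next was c7b, a component of the complement membrane attack complex, with signals of 680, 655 and 307 in lesioned retinas, against 36.9, 57.3 and 65.4 in control retinas, and a change of 2.47 ± 0.21 (adjusted p = 2.05e-07). In control retina both genes lay below the median signal of every array.

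**Figure D1:**
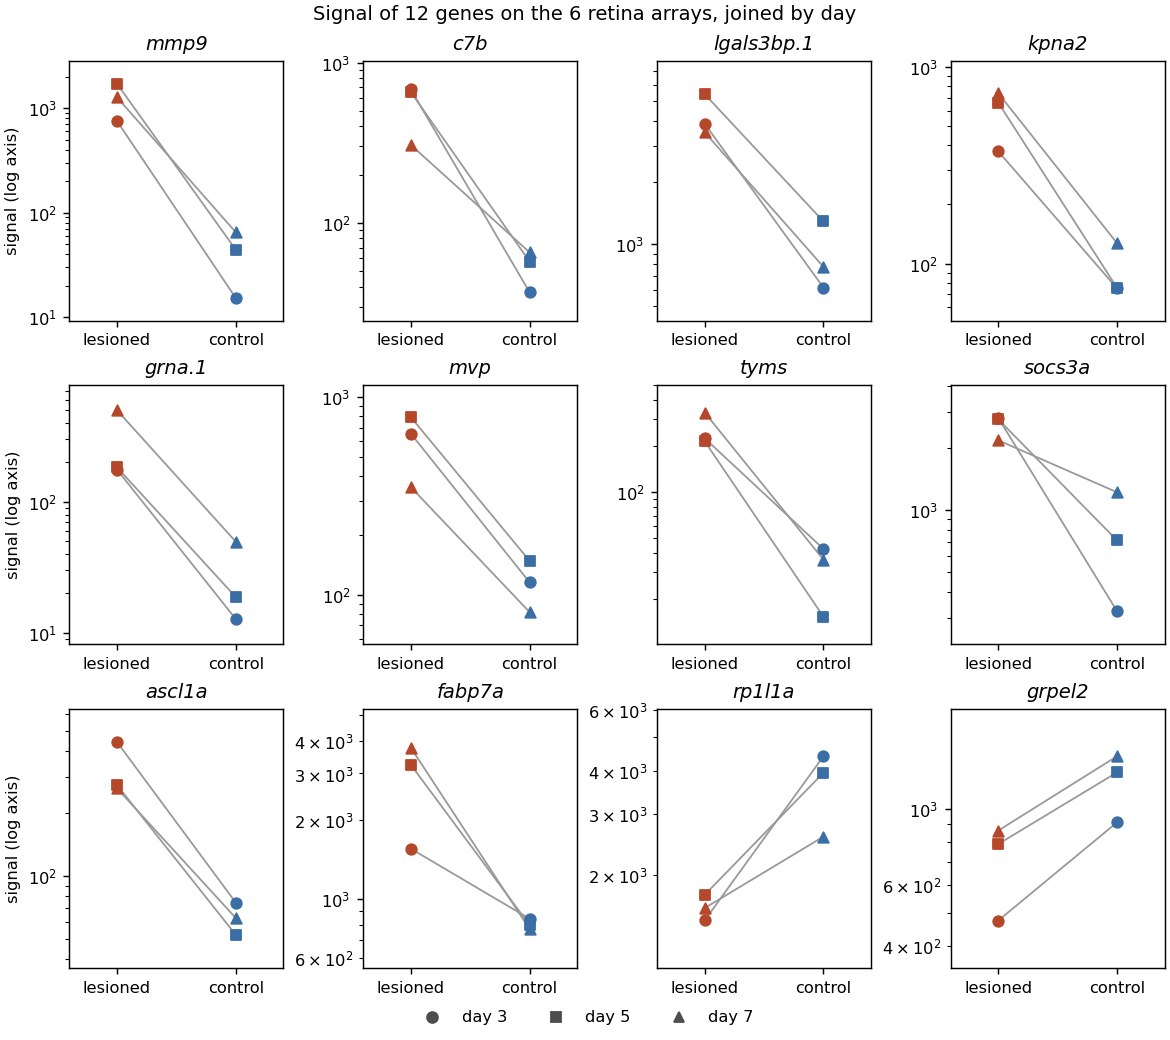
Signal (log axis, a different range in each panel) of 12 genes on the 3 lesioned and 3 control arrays, with a marker shape for each day and a line joining the arrays of a day. In 10 genes from mmp9 to fabp7a all 3 lesioned arrays lie above all 3 control arrays, and in rp1l1a and grpel2 all 3 lie below.

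Of the other leading rises, the galectin-binding protein gene lgals3bp.1 gave 3866, 5395 and 3514 in lesioned retinas, against 614, 1291 and 775 in control retinas, a change of 2.23 ± 0.15 (adjusted p = 7.47e-09), without overlap between the groups. The galectin gene lgals2a gave 643, 1360.4 and 1297 in lesioned retinas, against 159, 359.9 and 361 in control retinas, a change of 1.74 ± 0.15 (adjusted p = 2.46e-07). Its 3 day ratios, 1.73, 1.78 and 1.71, were almost equal, and its groups did not overlap. The major vault protein gene mvp, which encodes the shell of a large ribonucleoprotein particle, gave 655, 794 and 351 in lesioned retinas, against 116, 149 and 81.8 in control retinas, a change of 1.93 ± 0.17 (adjusted p = 2.05e-07). The ratio of mvp was 2.09, 2.09 and 1.61 on days 3, 5 and 7, lowest on the last of them.

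**Figure D2:**
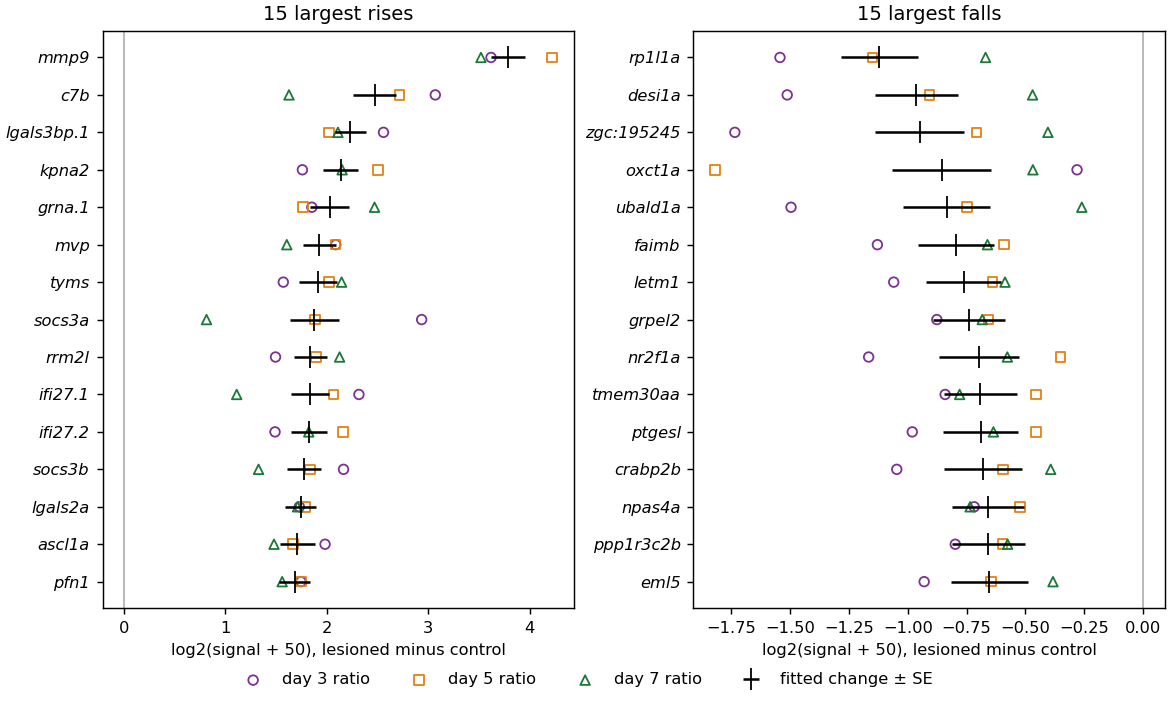
Log2(signal + 50) ratios, lesioned minus control, of the 15 genes with the largest rises and the 15 with the largest falls, with an open marker for each day and a bar for the fitted change and its standard error. The rises of mmp9, lgals2a and pfn1 hold over the 3 days, the rise of socs3a is smaller on each later day, and most falls are largest on day 3.

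Genes of phagocytes and of the lysosome were among those that rose. Of 16 measured genes on a list of leukocyte and microglia markers, 11 rose and none fell, with a median log2 change of 0.77, and 6 more lay below the filter. The macrophage scavenger receptor gene marco gave 177, 270.5 and 374 in lesioned retinas, against 45.2, 68.6 and 107 in control retinas, a change of 1.37 ± 0.17 (adjusted p = 1.96e-05). The leukocyte actin-binding genes lcp1 and coro1a changed by 1.098 ± 0.17 and 1.12 ± 0.17, and spi1b, which encodes the myeloid transcription factor PU.1, by 0.93 ± 0.17 (adjusted p = 0.00163). In all 3 the groups did not overlap, but their control signals were low, so they could pass the filter through their lesioned signals. The summed signal of the list was 19593, 32184 and 24855 in lesioned retinas, against 13973, 16672 and 15135 in control retinas, higher in the lesioned retina of each day. This sum mostly follows lgals3bp.1, given above, and apoeb, which is also on the Müller glia list. apoeb alone gave 9765, 13438 and 10729 in lesioned retinas, against 7744, 7399 and 7129 in control retinas. The pan-leukocyte gene ptprc lay below the filter, at 105 to 135 in lesioned and 30.4 to 67.2 in control retinas, and the neutrophil peroxidase gene mpx lay at 4.9 to 35.5 in lesioned and 5.4 to 31.7 in control retinas. In RNA of whole retina, more cells of a type and more RNA per cell cannot be told apart.

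Lysosomal genes rose in part. Of 26 measured genes for lysosomal membrane proteins, granulins and cathepsins, 11 rose and 1 fell, with a median of 0.33, or 0.53 without day 3. The granulin gene grna.1 gave 176, 184 and 502 in lesioned retinas, against 12.7, 18.7 and 49.6 in control retinas, a change of 2.03 ± 0.19 (adjusted p = 4.71e-07). Its relative grna changed by 1.51 ± 0.17, and laptm5, which haematopoietic cells use in their lysosomes, by 1.60 ± 0.16, each with groups apart. Cathepsin genes, which encode lysosomal proteases, rose by 1.34 ± 0.18 in ctss2.2, 1.002 ± 0.16 in ctsc and 0.98 ± 0.16 in ctsz. The member that fell, lamp1a, which encodes an abundant membrane glycoprotein of lysosomes, changed by -0.58 ± 0.15 (adjusted p = 0.0256), with overlapping groups, and lost its call without day 3, at -0.53 (adjusted p = 0.103), as it did without day 5, at -0.54 (adjusted p = 0.0724), and without day 7, at -0.68 (adjusted p = 0.0927). The 11 risen members were 7 cathepsins, 2 granulins, laptm5 and the tetraspanin gene cd63.

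Most measured complement and interferon-induced genes rose. Of 5 measured complement and plasma protein genes, 4 rose, with a median of 0.88, and 15 further members lay below the filter. Risen members such as c7b and c1qc were dim in control retina and could pass the filter through their lesioned signals. The share and the median partly reflect that choice. The gene for the C1q chain c1qc gave 195, 411 and 271 in lesioned retinas, against 39.1, 119 and 66.6 in control retinas, a change of 1.46 ± 0.17 (adjusted p = 7.12e-06), and properdin, cfp, changed by 0.88 ± 0.16 (adjusted p = 0.00162). The day ratios of c1qc, 1.46, 1.45 and 1.46, differed by less than those of any other gene with a log2(signal + 50) ratio of at least 1 on every day. Of 10 measured interferon-induced genes, 7 rose, with a median of 0.72, and without day 3 the count was 3. The interferon-induced gene ifi27.1 gave 829.7, 3159.5 and 672 in lesioned retinas, against 126, 716 and 284 in control retinas, a change of 1.83 ± 0.19 (adjusted p = 1.11e-06), and its groups overlapped although every day's ratio was positive. Its relative ifi27.2, a leading rise that is not on the list, changed by 1.82 ± 0.18, the ubiquitin-like isg15 by 1.23 ± 0.18, and the light chain of MHC class I, b2m, by 0.78 ± 0.16 (adjusted p = 0.00314). The ratio was largest on day 3 in 5 of the 7 and on day 7 in none.

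Proteasome genes rose in part. Of 50 measured proteasome and ubiquitin genes 6 rose (12%, against 5.25% of all genes), with a median of 0.10, or 0.16 without day 5, and without day 3 the count was 3. The risen genes included psme1, a subunit of the interferon-inducible proteasome activator, which gave 231, 527 and 399.7 in lesioned retinas, against 71.3, 182 and 189.8 in control retinas, a change of 1.14 ± 0.17 (adjusted p = 0.000112). The other activator subunit, psme2, changed by 1.02 ± 0.22 (adjusted p = 0.00518), and by 0.58 (adjusted p = 0.104) without day 5. The inducible catalytic subunits psmb8a and psmb10 changed by 0.75 ± 0.19 (adjusted p = 0.018) and 0.70 ± 0.17 (adjusted p = 0.0151), and neither passed without day 3, at 0.59 (adjusted p = 0.121) and 0.47 (adjusted p = 0.211). Both also count among the risen interferon-induced genes. The core subunit genes psmb1 and psma6l rose too, by 0.65 ± 0.15 (adjusted p = 0.0084) and 0.84 ± 0.19 (adjusted p = 0.00853). psmb1 did not pass without day 7, at 0.72 (adjusted p = 0.059), nor psma6l without day 3, at 0.68 (adjusted p = 0.0662).

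Markers of blood, vessels, smooth muscle and pigment cells moved in the same direction on some of these arrays. Of 11 measured erythrocyte genes 4 rose, with a median of 0.36, or 0.56 without day 7, and 6 lay below the filter. The globin gene hbaa1 gave 5158, 16023 and 15260.2 in lesioned retinas, against 849.6, 9292 and 10021 in control retinas, a change of 1.31 ± 0.23 (adjusted p = 0.000875). Its ratios were 2.53, 0.78 and 0.60, and its control signals of days 5 and 7 exceeded its lesioned signal of day 3. The summed signal of the erythrocyte list was 10141, 27732 and 24603 in lesioned retinas, against 6180, 17235 and 18728 in control retinas. Most of the difference between these sums was that of hbaa1, which on day 3 exceeded the difference of the whole list. Of 6 endothelial genes plvapb and kdrl rose, by 0.87 ± 0.17 and 0.68 ± 0.17, and kdrl lost its call without day 5, at 0.43 (adjusted p = 0.175), where the endothelial count was 1. Of 11 measured muscle genes 3 rose, and 15 more lay below the filter. Of the 3, tagln and acta2, which smooth muscle and myofibroblasts also use, changed by 0.80 ± 0.17 and 0.66 ± 0.17. The muscle creatine kinase gene ckmb changed by 0.66 ± 0.18. Without day 7, acta2 changed by 0.59 (adjusted p = 0.192), and without day 3 and day 5, ckmb changed by 0.56 (adjusted p = 0.14) and 0.52 (adjusted p = 0.157). Summed endothelial signal was 2820.2, 3089 and 3307 in lesioned retinas, against 1960.2, 2244 and 2602 in control retinas, and summed muscle signal was 2907, 3217 and 2044 in lesioned retinas, against 2334, 1852 and 1546 in control retinas. Of 7 visual cycle and pigment genes pmelb, a melanosome protein gene, rose by 0.81 ± 0.16, with 0.64 (adjusted p = 0.125) without day 7, while summed signal was 22685, 37640.2 and 42772 in lesioned retinas, against 14469.8, 38492 and 37752 in control retinas. The part of these cells in the results was not tested. The sums of blood, vessel and muscle markers were higher in the lesioned retina of every day, and that of pigment markers on days 3 and 7. For blood this rests largely on hbaa1. A large part of the pigment sums is rpe65a, at 9686 to 21566 in lesioned and 4834 to 20551 in control retinas.

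Genes of the Müller glia rose in part. Of 22 measured Müller glia genes 6 rose and none fell, with a median of 0.30. The median was 0.11 without day 5, and on day 3 alone it was -0.09. The fatty acid-binding protein gene fabp7a, a marker of radial glia, gave 1554, 3238 and 3759 in lesioned retinas, against 842, 797 and 769.7 in control retinas, a change of 1.67 ± 0.20 (adjusted p = 7.12e-06). All 3 control signals were alike and the lesioned signal of day 3 was the lowest of the lesioned ones. The glial factor sox9b changed by 0.87 ± 0.18 (adjusted p = 0.00398) and the intermediate filament gene vim by 0.73 ± 0.16 (adjusted p = 0.00675), of which vim lost its call without day 7, at 0.60 (adjusted p = 0.181). The calcium-binding ictacalcin gene icn, which is also on the annexin and S100 list, changed by 1.17 ± 0.15 (adjusted p = 2.25e-05). Some defining genes of these cells did not pass: the filament gene gfap changed by 0.54 ± 0.16 (adjusted p = 0.0611), the glutamine synthetase gene glulb by 0.42 ± 0.15 (adjusted p = 0.14), and the retinal-binding protein gene rlbp1a by -0.27 ± 0.16 (adjusted p = 0.449). apoeb, on this list and on the phagocyte list, changed by 0.59 ± 0.13 (adjusted p = 0.009), and by 0.46 (adjusted p = 0.0621) without day 5 and 0.59 (adjusted p = 0.0866) without day 7.

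Transcription and signalling factors tied to regeneration rose in part. Of 36 measured factors on a list of regeneration-associated genes 9 rose and none fell, with a median of 0.16, and without day 7 the count was 4. ascl1a, a proneural factor that zebrafish Müller glia need for regeneration, gave 442, 274 and 265 in lesioned retinas, against 74.5, 52.1 and 62.8 in control retinas, a change of 1.71 ± 0.18 (adjusted p = 1.1e-06). The cytokine signalling inhibitor socs3a gave 2802, 2759.7 and 2183 in lesioned retinas, against 323, 712 and 1220.2 in control retinas, a change of 1.88 ± 0.24 (adjusted p = 2.25e-05). Its ratios, 2.94, 1.88 and 0.81, were smaller on each later day, and its control signals were larger on each later day. Its relative socs3b changed by 1.78 ± 0.17 (adjusted p = 4.8e-07), with ratios of 2.17, 1.84 and 1.33, and stat3, the transcription factor that socs3 proteins restrain, by 0.79 ± 0.16 (adjusted p = 0.00443), or 0.67 (adjusted p = 0.104) without day 7. The retinal progenitor factor foxn4 changed by 0.84 ± 0.18 (adjusted p = 0.00675), or 0.75 (adjusted p = 0.0669) without day 7, and sox11b, a factor of immature neurons, by 0.87 ± 0.16 (adjusted p = 0.00167), or 0.72 (adjusted p = 0.0582) without day 7. The growth factor gene mdka, on the same list, changed by -0.38 ± 0.14 (adjusted p = 0.137) and did not pass, and neither did the homeobox gene six3a, at -0.24 ± 0.15 (adjusted p = 0.448).

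The immediate early factors were split. Of 44 measured immediate early and stress genes 9 rose and none fell, while the median of the list was 0.08, or -0.04 without day 5. The risen ones were transcription factors of the AP-1, ATF and C/EBP families and nfkbiaa. atf3 gave 599.9, 520.4 and 646 in lesioned retinas, against 123, 149 and 253 in control retinas, a change of 1.54 ± 0.17 (adjusted p = 2.6e-06). jun gave 1763, 1723 and 983 in lesioned retinas, against 402, 572 and 533 in control retinas, a change of 1.45 ± 0.18 (adjusted p = 2.25e-05). fosab changed by 1.08 ± 0.21 (adjusted p = 0.00295), with ratios of 1.51, 1.62 and 0.12, of which that of day 7 was near 0. All 9 had their smallest ratio on day 7, and 7 had their largest on day 3. The phosphatase gene dusp5 and the stress enzyme gene chac1 changed by -0.41 ± 0.15 and -0.30 ± 0.14 and did not pass.

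Genes for making deoxynucleotides and copying DNA rose in part. Of 35 measured DNA replication and repair genes 10 rose and none fell, with a median of 0.43, and 17 lay below the filter. Risen members such as tyms were dim in control retina and could pass the filter through their lesioned signals. The thymidylate synthase gene tyms gave 226, 216 and 332 in lesioned retinas, against 42.7, 15.4 and 36.3 in control retinas, a change of 1.91 ± 0.19 (adjusted p = 6.43e-07). The ribonucleotide reductase genes rrm2l and rrm1 changed by 1.84 ± 0.16 (adjusted p = 2.54e-07) and 0.92 ± 0.16 (adjusted p = 0.000752). The signals of rrm2l were 659, 699 and 1181 in lesioned retinas, against 202, 152 and 232 in control retinas, and its groups did not overlap. The replicative helicase genes mcm2, mcm3 and mcm7 changed by 1.24 ± 0.18, 1.04 ± 0.19 and 0.72 ± 0.16, and the sliding clamp gene pcna by 0.69 ± 0.14 (adjusted p = 0.00442). pcna gave 3313, 3434 and 4598 in lesioned retinas, against 2143, 2279 and 2487 in control retinas, without overlap. Without day 7 pcna changed by 0.60 (adjusted p = 0.156) and mcm7 by 0.62 (adjusted p = 0.14), so neither then passed. uhrf1, which binds hemimethylated DNA after replication and recruits the maintenance methyltransferase, changed by 1.17 ± 0.18 (adjusted p = 0.00025). The flap nuclease gene fen1 and the ligase gene lig1 changed by 0.46 ± 0.15 and 0.47 ± 0.16 and did not pass. Of the 10 risen genes 8 had their largest ratio on day 7.

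Genes of mitosis were mostly too dim to measure, and some of the rest rose. Of 55 mitosis and cell cycle control genes on the array 34 lay below the filter, and of the 21 measured 7 rose and none fell, with a median of 0.20, or 0.38 without day 3. Risen members such as cdk1 were dim in control retina and could pass the filter through their lesioned signals. kpna2, a nuclear import receptor, gave 372, 659 and 736 in lesioned retinas, against 74.7, 75.1 and 127 in control retinas, a change of 2.14 ± 0.17 (adjusted p = 1.05e-07). The mitotic kinase gene cdk1 gave 101, 162 and 270.2 in lesioned retinas, against 14.9, 54.7 and 76.3 in control retinas, a change of 1.19 ± 0.18 (adjusted p = 0.000237). The condensin gene smc4 changed by 1.29 ± 0.19 (adjusted p = 0.000154), the survivin gene birc5a by 0.94 ± 0.17 (adjusted p = 0.00128), and the cyclin D gene ccnd1 by 0.97 ± 0.17 (adjusted p = 0.00101), or 0.73 (adjusted p = 0.0521) without day 7. The cyclin B gene ccnb1, with ratios of -0.13, 1.06 and 0.96, did not pass, but did without day 3, at 1.01 (adjusted p = 0.000367). In 5 of the 7 risen genes the ratio was largest on day 7. The probe sets of kpna2 and rrm2l carry the same manufacturer cluster number, and the names are those of the platform annotation. Other genes share such a number too, among them postnb with rplp2b, tubb4b with tubb2b, tmem30aa with rack1, and tuba5 with cdca8.

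Matrix and remodelling genes rose in part, collagens among them. Of 37 measured genes on this list, which also holds keratin genes, 16 rose and none fell, with a median of 0.53. A further 12 lay below the filter. Risen members such as postnb were dim in control retina and could pass the filter through their lesioned signals. The type I collagen genes col1a1a and col1a2 changed by 1.63 ± 0.16 (adjusted p = 8.38e-07) and 1.48 ± 0.17 (adjusted p = 4.42e-06). col1a1a gave 245, 949 and 973 in lesioned retinas, against 68.7, 237 and 249 in control retinas, with overlapping groups. col1a2 gave 359.8, 1096 and 722 in lesioned retinas, against 147, 308 and 185 in control retinas, without overlap. The simple epithelial keratin genes krt8 and krt18a.1, which stressed cells also use, changed by 1.38 ± 0.15 (adjusted p = 3.47e-06) and 1.54 ± 0.15 (adjusted p = 8.28e-07), with overlapping groups in both. Periostin, postnb, a matrix protein of healing tissue, gave 98.4, 362 and 355 in lesioned retinas, against 46.7, 33.1 and 70.6 in control retinas, a change of 1.56 ± 0.23 (adjusted p = 0.000156). Its day 3 ratio of 0.62 was well under those of days 5 and 7. Of the 16 risen genes, keratins included, 11 had their smallest ratio on day 3.

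Cytoskeletal genes rose in subsets. Of 40 measured actin and motility genes 13 rose and none fell, with a median of 0.36. Profilin, pfn1, which binds actin monomers, gave 844, 1892 and 1992 in lesioned retinas, against 217, 528 and 643 in control retinas, a change of 1.68 ± 0.15 (adjusted p = 2.87e-07). The Arp2/3 subunit gene arpc1b changed by 1.15 ± 0.16 (adjusted p = 0.000105), the filamin gene flna by 1.08 ± 0.17 (adjusted p = 0.000201) and the calponin gene cnn2 by 1.16 ± 0.18 (adjusted p = 0.000272). The thymosin gene tmsb, singled out after its values were seen, was one of the 2 risen genes without a rise on every day: its ratios were -0.09, 1.63 and 2.89, for a fitted change of 1.48 ± 0.32 (adjusted p = 0.00628), and it did not pass without day 5, at 1.401 (adjusted p = 0.0611), or day 7, at 0.77 (adjusted p = 0.0541). Of 13 measured annexin and S100 genes 7 rose, with a median of 0.60, and 9 more lay below the filter. Without day 5 and day 7 the counts of rises were 2 and 3. Among the 7 was icn, which is also on the Müller glia list. The membrane-binding anxa2a changed by 1.18 ± 0.19 (adjusted p = 0.000327), with ratios of 0.55, 1.60 and 1.39.

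Tubulin and axon growth genes gave a few large rises among many small values. Of 19 measured tubulin and microtubule genes 4 rose, with a median of 0.15, or 0.29 without day 5. tuba1b gave 5653, 3571 and 4445 in lesioned retinas, against 1302, 1350.1 and 1561 in control retinas, a change of 1.64 ± 0.16 (adjusted p = 4.8e-07). tuba5, tuba8l3 and tubb5 changed by 1.64 ± 0.17, 1.46 ± 0.15 and 1.35 ± 0.23, and the ratios of tubb5, 0.33, 1.52 and 2.22, were larger on each later day. The tubulin genes tuba8l4, tubb4b, tubb2b and tuba2 changed by 0.38 ± 0.12, 0.33 ± 0.13, 0.11 ± 0.14 and 0.08 ± 0.14 and did not pass, and probe sets of such alike genes may share transcripts. Of 22 measured axon growth and ganglion cell genes 3 rose, with a median of -0.01. The growth cone gene gap43 gave 938, 667 and 683 in lesioned retinas, against 348, 264 and 309 in control retinas, a change of 1.18 ± 0.16 (adjusted p = 3.45e-05). The others were tubb5 and prph, a neuronal intermediate filament gene (adjusted p = 0.0016), whose signals were 317, 304 and 475 in lesioned retinas, against 178, 168 and 122 in control retinas and whose change was 0.70 (adjusted p = 0.0734) without day 7. Ganglion cell and pan-neuronal genes such as isl1a, elavl3 and inaa changed by -0.08 ± 0.15, -0.07 ± 0.14 and -0.25 ± 0.14 and did not pass.

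Ribosomal protein genes gave many calls. Of 74 measured ribosomal protein genes 37 rose and none fell, with a median of 0.47 and medians of 0.62, 0.21 and 0.61 on days 3, 5 and 7. The count depended on the days used, with 20 without day 3, 52 without day 5 and 13 without day 7. The acidic stalk protein gene rplp2b gave 11745, 13068 and 13051 in lesioned retinas, against 4798, 8681 and 5245 in control retinas, a change of 1.06 ± 0.15 (adjusted p = 6.57e-05). rpl27a changed by 0.96 ± 0.16 (adjusted p = 0.000453) and rps12 by 0.81 ± 0.14 (adjusted p = 0.000513), each without overlap between the groups. Of 45 translation factor genes 11 rose, with a median of 0.22, and 5 without day 3 and 3 without day 7. The elongation factor gene eef1a1l1 gave 19602, 23269 and 27618 in lesioned retinas, against 12213, 14105 and 17295 in control retinas, a change of 0.69 ± 0.12 (adjusted p = 0.000578) with ratios of 0.68, 0.72 and 0.67. Of 45 nucleolar genes 2 rose (4.44%, against 5.25% of all genes), utp15 and ddx21, by 0.58 ± 0.17 and 0.58 ± 0.17, with a median of 0.21, and none did without day 3 or without day 7. Adjusted p was 0.0432 for utp15 and 0.0463 for ddx21.

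**Figure D3:**
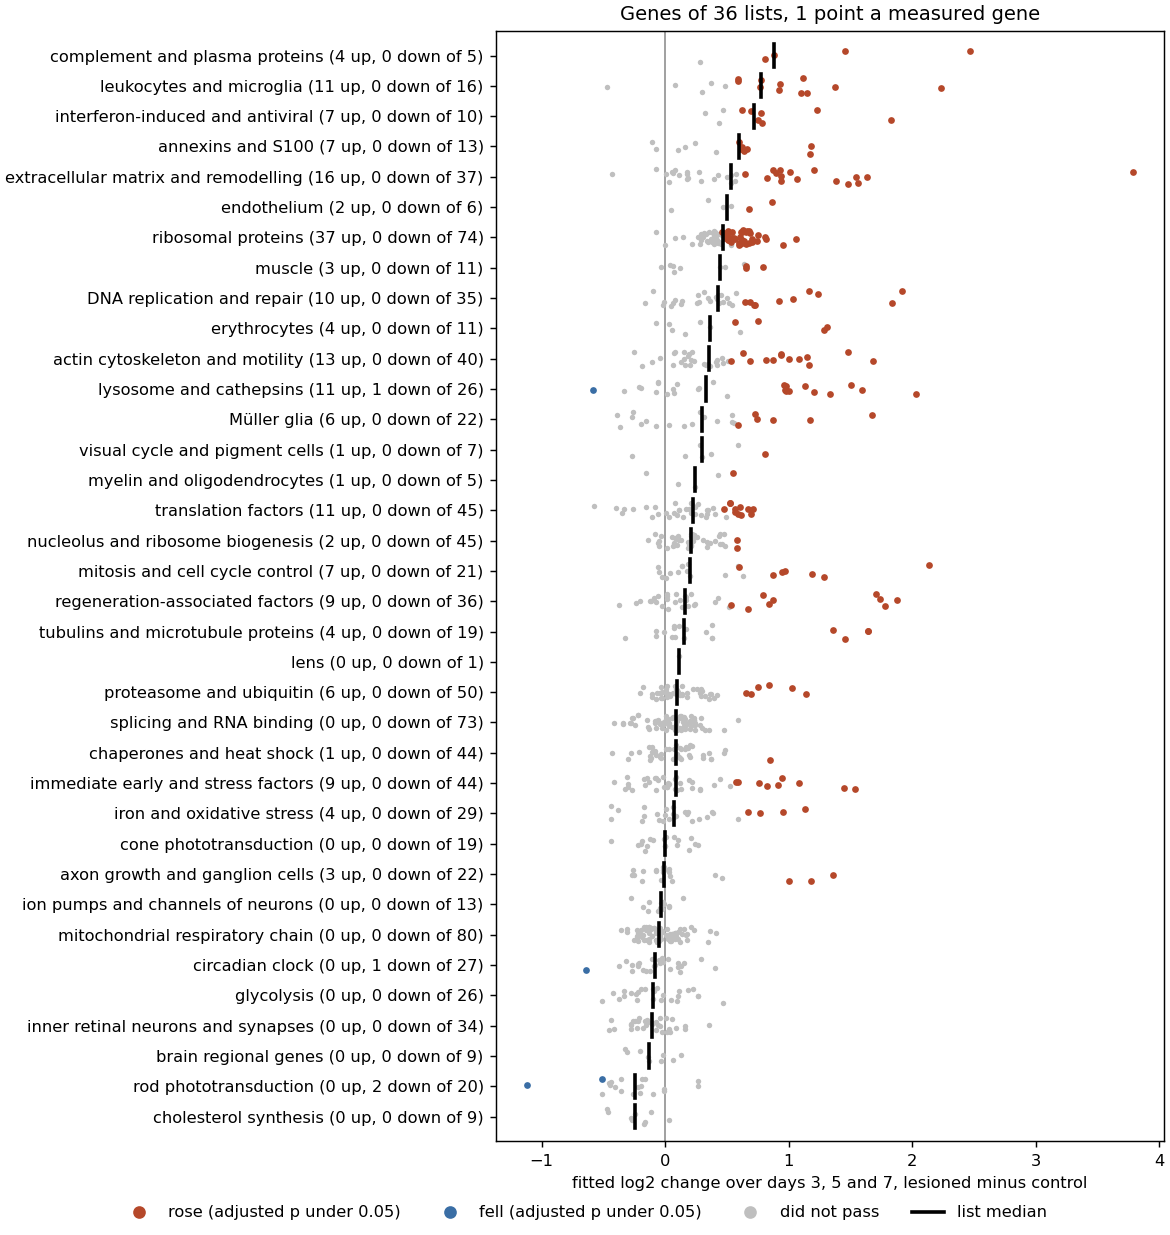
Fitted log2 change over days 3, 5 and 7, lesioned minus control, of every measured gene of 36 lists (1 point a gene, with vertical scatter for sight only), coloured by whether it rose, fell or did not pass an adjusted p of 0.05, with a bar at each list's median. Lists run from complement genes, median 0.88, to cholesterol synthesis genes, median -0.25, and lists such as the immediate early factors hold a few far points beside many near 0.

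Other housekeeping sets gave few or no calls, apart from the iron and oxidative stress list. Of 44 measured chaperone genes the small heat shock gene hspb1 alone rose (2.27%, against 5.25% of all genes), by 0.85 ± 0.18 (adjusted p = 0.00404). Its change was 0.59 (adjusted p = 0.0597) without day 3, where no chaperone passed. Of 29 iron and oxidative stress genes 4 rose (13.8%, against 5.25% of all genes), with a list median of 0.07. Among the 4 were the thioredoxin-binding txnipa, at 1.14 ± 0.16 (adjusted p = 0.000105), and the peroxiredoxin gene prdx1, at 0.95 ± 0.16 (adjusted p = 0.000445). None of 73 splicing genes, 80 respiratory chain genes, 26 glycolysis genes, 9 cholesterol synthesis genes or 13 neuronal ion pump and channel genes passed. Over all 3 days their medians were 0.09, -0.05, -0.10, -0.25 and -0.04. Without 1 day, syncripl of the splicing list passed, at 0.87 (adjusted p = 0.00977) without day 7, as did the ATP synthase gene atp5f1c, at 0.70 (adjusted p = 0.0133) without day 5. The lowest adjusted p in these sets were 0.0521 for the RNA-binding gene syncripl, at 0.59 ± 0.17, and 0.0701 for the glycolytic gene tpi1a, at -0.51 ± 0.16. In the cholesterol set, with a median of -0.15 without day 5, 8 of 9 changes were negative, with fdps at -0.47 ± 0.16 (adjusted p = 0.096) and msmo1 at -0.46 ± 0.16 (adjusted p = 0.099).

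The falls were fewer and smaller. Led by rp1l1a, a gene whose mammalian relative belongs to the photoreceptor axoneme, the 36 genes that fell had a median log2 change of -0.63. rp1l1a gave 1478, 1752 and 1604 in lesioned retinas, against 4403, 3947 and 2581 in control retinas, a change of -1.12 ± 0.16 (adjusted p = 0.000114). Every lesioned array lay below every control array, and the ratio, -1.54, -1.15 and -0.67, was nearer to 0 on each later day. desi1a changed by -0.96 ± 0.18 (adjusted p = 0.00141) and faimb, which encodes a Fas apoptotic inhibitory molecule, by -0.79 ± 0.16 (adjusted p = 0.0038).

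Of the other leading falls, the inner membrane ion exchanger gene letm1 gave 560, 463 and 597 in lesioned retinas, against 1222, 749 and 922 in control retinas, a change of -0.76 ± 0.16 (adjusted p = 0.00443). The mitochondrial cochaperone gene grpel2 gave 474, 789.9 and 864 in lesioned retinas, against 913, 1274 and 1418 in control retinas, a change of -0.74 ± 0.15 (adjusted p = 0.00406). Neither overlapped between the groups, and the dimmer probe set of each did not pass. oxct1a, an enzyme that uses ketone bodies, changed by -0.86 ± 0.21 (adjusted p = 0.0165), but its ratios were -0.28, -1.82 and -0.47, and without day 5 its change was -0.37 (adjusted p = 0.21). The glycogen-targeting phosphatase gene ppp1r3c2b changed by -0.66 ± 0.15 (adjusted p = 0.0111), and by -0.59 (adjusted p = 0.0591) without day 3 and -0.70 (adjusted p = 0.0783) without day 7.

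The orphan nuclear receptor gene nr2f1a changed by -0.70 ± 0.17 (adjusted p = 0.0151), and by -0.46 (adjusted p = 0.218) without day 3. The activity-dependent factor npas4a changed by -0.66 ± 0.15 (adjusted p = 0.0116), and by -0.62 (adjusted p = 0.142) without day 7. The retinoic acid-binding protein gene crabp2b changed by -0.68 ± 0.17 (adjusted p = 0.0157), and by -0.49 (adjusted p = 0.183) without day 3. cry1b, a cryptochrome of the circadian clock, was the 1 gene of 27 measured clock genes to pass, at -0.64 ± 0.16 (adjusted p = 0.0166), and it did not pass without day 3, at -0.58 (adjusted p = 0.068), or without day 5, at -0.59 (adjusted p = 0.0572). tmem30aa, a flippase subunit, changed by -0.69 ± 0.15 (adjusted p = 0.00791), and by -0.65 (adjusted p = 0.124) without day 7. Each of these 5 genes thus lost its call without some day, in a fit on fewer arrays. The changes of npas4a and tmem30aa hardly differed in size there.

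Genes on a rod list had mostly negative values. Of 20 measured genes on a list for rod phototransduction 2 fell (10%, against 0.597% of all genes) and none rose. Of the 2, rp1l1a has a relative in the photoreceptor axoneme, so the share is not one of phototransduction genes alone. On this list 18 of 20 changes were negative, with a median of -0.24, or -0.39 without day 5. On days 3, 5 and 7 the list median was -0.50, -0.06 and -0.24. With the GAPDH ratio as a covariate the list median was 0.03, and none of its genes fell. The count of falls was 1 without day 3 and 7 without day 5. Besides rp1l1a, the guanylate cyclase activator gene guca1b gave 7070, 8088 and 8187 in lesioned retinas, against 11883, 10711 and 10730.1 in control retinas, a change of -0.51 ± 0.13 (adjusted p = 0.022), or -0.40 (adjusted p = 0.182) without day 3 and -0.57 (adjusted p = 0.109) without day 7. The rod transducin gene gnat1 gave 7759, 18565 and 19329.5 in lesioned retinas, against 18019, 18796 and 23815 in control retinas, a change of -0.51 ± 0.16 (adjusted p = 0.0766) that did not pass, with ratios of -1.21, -0.02 and -0.30. It did pass without day 5, at -0.76 (adjusted p = 0.00943), and without day 7, at -0.61 (adjusted p = 0.0458), both of which keep the low lesioned signal of day 3. Of 19 cone phototransduction genes none passed, and their median was 0.00. The green opsin gene opn1mw1 changed by -0.44 ± 0.13 (adjusted p = 0.0671), and passed without day 5, at -0.57 (adjusted p = 0.0217). Another green opsin gene, opn1mw2, changed in the opposite direction, by 0.24 ± 0.11 (adjusted p = 0.275). So did the red opsin gene opn1lw1, by 0.27 ± 0.11 (adjusted p = 0.215). The difference between rod and cone genes was not tested.

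Inner retinal neurons and their synapses showed no call. Of 34 measured genes none passed, with a median of -0.10, or -0.06 without day 5. Without day 3, 1 passed, the glutamate receptor gene grin1a, at -0.65 (adjusted p = 0.0135). Its ratios on days 3, 5 and 7 were -0.05, -1.23 and -0.07, so that call rests on day 5. Another probe set of grin1a had the opposite sign over all 3 days, at 0.15 ± 0.18 (adjusted p = 0.758). The amacrine and bipolar cell factor bhlhe22 changed by -0.43 ± 0.15 (adjusted p = 0.109), the glutamate receptor gene gria2a by -0.42 ± 0.16 (adjusted p = 0.157), the bipolar cell factor vsx1 by -0.24 ± 0.15 (adjusted p = 0.47) and the GABA synthesis gene gad1b by -0.22 ± 0.13 (adjusted p = 0.418). None of 9 measured brain regional genes passed either. Of 5 measured myelin genes cldnk rose, by 0.55 ± 0.16 (adjusted p = 0.0437), but not without day 5, at 0.49 (adjusted p = 0.128), or day 7, at 0.43 (adjusted p = 0.494), and the myelin basic protein gene mbpa changed by -0.16 ± 0.16 (adjusted p = 0.694).

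A log2(signal + 50) ratio of at least 1 on every one of the 3 days was seen in 40 genes (0.663% of those tested), and a fall of that size on every day in none. The largest of their lowest ratios were those of mmp9, at 3.52, lgals3bp.1, at 2.02, and grna.1, at 1.77. Those named above were joined by the macrophage gene cd68, the lipoprotein gene apoc1, the uncoupling protein gene ucp2, the coagulation factor gene f5, the creatine kinase gene ckba and the zinc finger gene zic2b, which are named from this count after it was made. Just inside the limit lay lcp1 and zic2b, with lowest ratios of 1.001 and 1.004, and just outside lay krt94 and cdca7a, at 0.99 each. With the added 50 this limit is stricter than a doubling of the signal itself, above all for dim genes. The signal of cdca7a more than doubled on every day, at 164.5, 177.8 and 243.8 in lesioned retinas, against 58.3, 37.1 and 61.7 in control retinas. Of the 317 genes that rose, 216 had all lesioned signals above all control signals, against 8.25% of all genes tested, and of the 36 that fell 25 had all below, against 4.66%. Both counts come from the arrays that gave the calls, so the test itself favours them.

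The days differed in where the ratios peaked. Of the 317 risen genes 132 had their largest ratio on day 3, 94 on day 5 and 91 on day 7, and of the 36 that fell 23 were lowest on day 3. The median ratio of the risen genes was 0.88, 0.81 and 0.75 on days 3, 5 and 7, and that of the fallen genes -0.82, -0.60 and -0.54. Across all 9301 probe sets the ratios of days 3 and 5, 3 and 7, and 5 and 7 correlated at 0.334, 0.477 and 0.362, where the probe sets are not independent and each pair of arrays was scaled alike. Each day rests on 1 pair of arrays, so day and array cannot be told apart.

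Retinas of days 2 and 14, which the fit did not use, gave ratios mostly of the same sign. Their arrays lie outside the technical batch of days 3 to 7, with median signals of 195.5 to 207.1, against 135 to 153.6. In the size of a ratio, day and batch thus cannot be told apart between these 2 sets of arrays. On day 2, 295 of the 317 risen genes (93.1%) had a positive ratio, against 54.9% of all genes tested, with a median of 0.53. On day 14, 248 (78.2%) did, against 50.4% of all genes, with a median of 0.21. Of the 36 genes that fell, 28 were negative on day 2 and 22 on day 14, against 45.03% and 49.5% of all genes, with medians of -0.30 and -0.07. The risen immediate early genes had a median ratio of 1.62 on day 2, above those of days 3, 5 and 7, at 1.26, 0.85 and 0.59. The risen DNA replication genes had medians of 0.34 on day 2 and 0.23 on day 14, below 0.94, 0.81 and 1.11 on days 3, 5 and 7, over which they were chosen. The risen ribosomal protein genes had a median of -0.05 on day 14, with 15 of 37 positive.

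**Figure D4:**
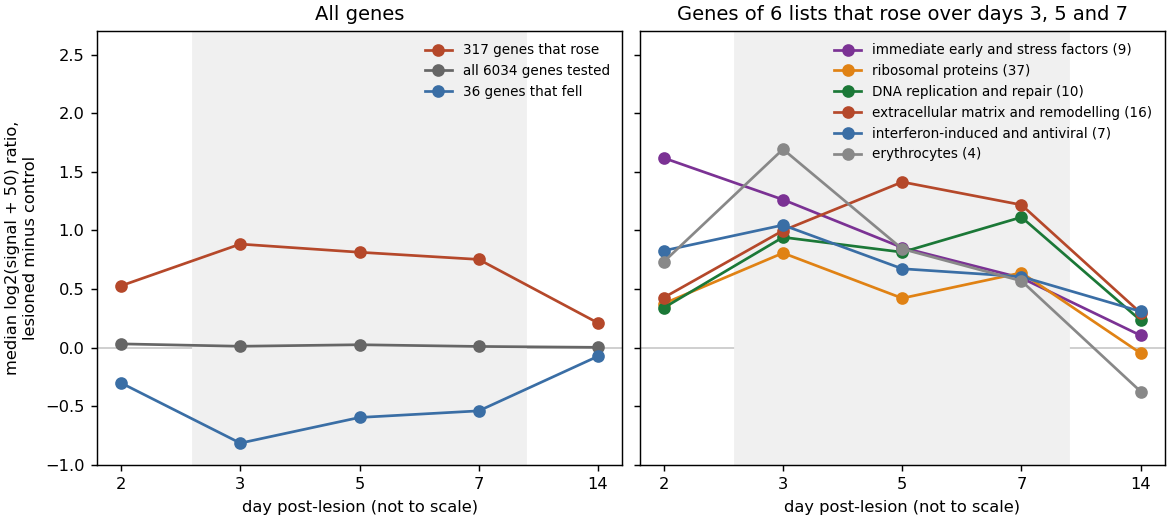
Median log2(signal + 50) ratio, lesioned minus control, by day post-lesion, of the genes that rose, of all genes tested and of those that fell (left), and of the risen members of 6 lists (right), with the 3 days that chose the genes shaded. The risen genes stay above all genes on days 2 and 14, at 0.53 and 0.21, and the risen immediate early genes are highest on day 2. The arrays of days 2 and 14 lie outside the technical batch of the shaded days.

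Whether the change of days 3 to 7 differed from that of days 2 and 14 was tested as an interaction over the 10 retina arrays. No probe set passed (0 of 9301, 0.0%), with 454 at an unadjusted p under 0.05 in limma. The lowest adjusted p, 0.0607, was shared by kpna2 and ifi27.2, whose changes on days 3 to 7 exceeded those on days 2 and 14 by 1.73 ± 0.27 and 1.85 ± 0.28. For kpna2 the ratios were 0.13 on day 2 and 0.69 on day 14, and for ifi27.2 they were 0.19 and -0.23. mmp9, at 3.96 and 1.93, gave a difference of 0.84 ± 0.43 (adjusted p = 0.996), and col1a1a, at 0.37 and 0.30, one of 1.29 ± 0.24 (adjusted p = 0.155). The GAPDH ratio was 0.752 and 0.807 on the lesioned and 0.770 and 0.854 on the control arrays of days 2 and 14, well above all 6 arrays of days 3 to 7, so in this test the day and this difference between arrays cannot be told apart.

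Probe sets of 1 gene could differ in size. Of the risen and fallen genes 31 had another tested probe set, and in none did it have the opposite sign. In several the other probe set did not pass: it changed by 0.40 ± 0.18 (adjusted p = 0.239) for jun, -0.10 ± 0.19 (adjusted p = 0.864) for letm1, -0.19 ± 0.20 (adjusted p = 0.71) for grpel2 and 0.75 ± 0.22 (adjusted p = 0.059) for col1a1a. Conversely, 9 genes had a dimmer probe set that passed while the brightest did not. The largest was mid1ip1b, whose dimmer probe set changed by -1.21 ± 0.22 and whose brightest changed by -0.08 ± 0.14, and next to it anxa4, at 0.98 ± 0.16 against -0.08 ± 0.14. Among 2446 tested probe sets without a single symbol, 73 rose and 29 fell, and these are not named.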

How the data were processed

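Total RNA of zebrafish retina was measured on Affymetrix zebrafish arrays. The deposited tables give linear signal intensity per probe set, computed by the authors with GCOS per the submitters' processing notes (no version is stated there), and the mean after trimming the lowest and highest 2% was near 500.1 on each retina array used, so the authors had scaled them. The lesion comparison used 6 arrays, and the interaction 10.

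Of 15617 probe sets, 115 manufacturer controls were left out. The platform annotation gave 1 symbol for 10795, several for 135 and none listed for 4572. These 10795 stand for 8793 genes, and 10711 had a gene ID in a current table (GRCz12tu), which updated 1 symbol. Detection calls were not used here.

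The deposited intensities were taken as log2(signal + 50), so changes of dim genes are understated. Probe sets below the 40th percentile of the mean over the 6 arrays were left out, and 9301 were tested with limma 3.58.1 in R 4.3.3 (lmFit, eBayes with an intensity trend), with the day as a block, 2 residual and 19.3 prior degrees of freedom, and Benjamini-Hochberg adjustment over all of them at 0.05. The list medians and counts cover only members past this filter, which a gene high in either group could pass. The pairing is by the day in the titles, and the design text calls the animals matched. Deviations from the group means of same-day arrays correlated at 0.685, 0.335 and 0.653, and each lesioned array correlated best with the control of its day. P-values measure the day-to-day spread of the paired ratio, moderated across probe sets. Nothing says that arrays came from separate animals, so that spread may be technical, and it may also hold change over the days. With 19.3 prior against 2 residual degrees of freedom, a standard error rests more on other probe sets than on the gene itself. For tmsb, ratios of -0.09, 1.63 and 2.89 on days 3, 5 and 7 gave a standard error of 0.32. The test was tried on simulated data with known changes and independent noise. Those data held no array-wide difference linked to the lesion, so the trial cannot speak to the lower GAPDH ratio of the lesioned arrays.

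A gene's brightest probe set stands for it. Named genes are the 15 largest rises and falls with the same sign on all 3 days, and in each of 36 lists up to 5 members per direction with the smallest p, or 3 where none passed. The other 45 genes named were chosen after their values were seen. The arrays, genes and lists were chosen with earlier results of these data known. Alternatives were other pseudocounts, filters, scalings and variance models, no block, the GAPDH ratio as covariate, and leaving out each day. Python 3.11.15, pandas 2.3.3 and matplotlib 3.10.9 made summaries and plots. No sequence or coordinate is given, since no genome was used here.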

Additional observations from a re-analysis of the deposited data

How the results depend on the processing

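Counts of probe sets that rose and fell, 406 and 70, stayed within 1.5 times under pseudocounts of 16 (401 and 68) and 100 (414 and 74), quantile normalization (298 and 48), median centring, no intensity trend, robust eBayes and a spread taken from 10 arrays. Other settings moved them. Without the filter on low signals, which tests more probe sets, 203 rose and 15 fell, and with a filter at the 60th percentile 221 rose. Without the replicate block 13 rose and 0 fell, which is 100% rises against 85.3% in the blocked fit. With the GAPDH ratio as a covariate and the day block, which leaves 1 residual degree of freedom, 24 rose and 2 fell. Leaving out 1 day at a time gave 271 to 359 rises and 31 to 146 falls, and without day 5 rises were 70.7% of the calls. The interaction with days 2 and 14, with 0 calls, gave 4 with a pseudocount of 100, 2 with median centring, 1 without the intensity trend, 3 with robust eBayes, and 0 to 8 when each day was left out. Of 135 named genes that passed, 48 lost their call without some day, 11 kept it without the block and 13 under the GAPDH covariate. None of the 135 changed direction except under that covariate, where 14 did, with log2 changes of -0.33 for socs3a, 0.15 for desi1a, 0.56 for zgc:195245, 0.50 for ubald1a, 0.092 for nr2f1a, 0.045 for crabp2b, -0.18 for hspb1, -0.36 for hbba2, -0.97 for hbaa1, -0.12 for epb41b, -0.10 for cebpd, -0.093 for fosab, -0.19 for psmb10 and -0.18 for ddx21. Of the 50 named genes that had not passed, the covariate turned 24, to 0.86 for sst1.1, 0.12 for opn1mw1, -0.18 for opn1mw2, 0.32 for tpi1a, 0.39 for eno1b, -0.25 for aldoab, 0.31 for atp1b1b, 0.27 for atp1a3b, 0.14 for atp1b1a, -0.64 for atp5f1c, -0.023 for atp5if1a, -0.13 for syncripl, 0.13 for srsf6b, 0.094 for chac1, 0.22 for crx, 0.020 for dusp5, 0.11 for gad1b, -0.36 for glulb, 0.69 for gnat1, 0.85 for mbpa, 0.13 for pde6c, 0.78 for rlbp1a, 0.17 for six3a and -0.050 for tubb2b. Quantile normalization turned tubb2b, to -0.0048, and the fits without 1 day each spanned 0 in 7 of them, with -0.34 to 0.13 for mbpa, -0.057 to 0.042 for pde6c, -0.42 to 0.022 for rlbp1a, -0.20 to 0.015 for isl1a, -0.074 to 0.25 for cryba4, -0.010 to 0.33 for tubb2b and -0.13 to 0.0039 for anxa4. The cause of these changes was not tested. The precision is limited by 3 pairs of arrays without replicates within a day, and for dim genes by signals near the added 50.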
